A study of Mus musculus with 4 samples.

Results

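The regions described here are stretches of open chromatin that were called in all 4 libraries of the series and that ranked higher, within their own library, in the SOX17FNV libraries than in the SOX2 libraries. Overlapping peaks of the 4 deposited lists were merged, and the regions on chromosomes 1 to 19 called in every library were kept, leaving out chromosome 14 and the stretch of chromosome 6 from 120 to 150 Mb. In each library a region was given the highest -log10 p of its peaks and then its percentile rank among the kept regions. Regions were selected on these measured ranks: one was taken when its percentile was at least 20 higher with SOX17FNV in replicate 1 and again in replicate 2. This gave 2122 regions of 52950 shared regions, or 4.01%, out of 170898 merged regions in the whole series. The opposite rule, at least 20 percentiles lower with SOX17FNV in both replicates, gave 2632 regions, or 4.97%, which are called SOX2-stronger below.

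ATAC-seq was used, an assay whose transposase tags accessible DNA with sequencing adapters, and the cells were the mouse embryonic stem cell line 2TS22C. The first group carried a lentivirus for SOX17FNV, an engineered variant of the endoderm factor SOX17, and the other a lentivirus for SOX2. Both groups carried a silenced endogenous Sox2, both were treated with DOX, and both were grown in 2i serum/LIF medium, so neither is an untreated stem cell. There were 2 libraries per group, titled as biological replicates and made from 900000 cells each, and no label says whether they came from separate derivations, so their spread may be technical.

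SOX factors bind a short core sequence in the minor groove through their HMG domain and bend the DNA. In pluripotent cells SOX2 pairs with the POU factor OCT4 on composite SOX-OCT sites of enhancers, whereas wild-type SOX17 directs endoderm genes. Open regions distant from gene starts are often enhancers, and those at gene starts are often promoters.

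RefSeq promoter windows (GRCm38.p6, the same coordinates as mm10) run from 250 bases before a gene's start to 50 bases after it, and the sequences below are the stretches of such windows that lie inside a SOX17FNV-stronger region. They are shown because promoter windows were the only sequence used here, and they let the motif counts be read against letters. Capitals mark the SOX core ACAANG on either strand or the octamer ATGCAAAT, the POU site, and each sequence runs 5′ to 3′ on the gene's strand. The first 6 in the order of the regions were those of Trpv5 (chr6:41680674-41680973, minus strand), Gm40862 (chr12:23405107-23405406, minus), Drc7 (chr8:95054853-95055152, plus), Gm33024 (chr6:84010829-84010956, minus), Gm40847 (chr12:19066133-19066432, plus) and Gm46543 (chr16:91724317-91724353, plus).
Trpv5: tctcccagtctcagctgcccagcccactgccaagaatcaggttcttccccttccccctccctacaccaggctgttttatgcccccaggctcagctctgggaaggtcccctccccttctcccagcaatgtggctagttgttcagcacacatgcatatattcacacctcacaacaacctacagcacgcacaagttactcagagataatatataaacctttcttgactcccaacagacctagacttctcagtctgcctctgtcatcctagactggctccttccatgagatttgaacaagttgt
Gm40862: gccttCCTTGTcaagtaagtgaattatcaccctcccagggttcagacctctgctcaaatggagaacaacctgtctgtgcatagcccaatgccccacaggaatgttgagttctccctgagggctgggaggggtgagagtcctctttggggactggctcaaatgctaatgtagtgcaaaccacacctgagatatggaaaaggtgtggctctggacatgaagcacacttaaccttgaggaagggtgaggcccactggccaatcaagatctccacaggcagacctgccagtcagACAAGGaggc
Drc7: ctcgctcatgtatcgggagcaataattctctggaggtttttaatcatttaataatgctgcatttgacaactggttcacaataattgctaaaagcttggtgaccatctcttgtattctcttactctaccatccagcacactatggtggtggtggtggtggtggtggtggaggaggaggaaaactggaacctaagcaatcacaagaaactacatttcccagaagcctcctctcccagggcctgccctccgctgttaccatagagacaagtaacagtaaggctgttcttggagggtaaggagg
Gm33024: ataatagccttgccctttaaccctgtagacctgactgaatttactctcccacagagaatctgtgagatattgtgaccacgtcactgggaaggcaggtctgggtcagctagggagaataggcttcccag
Gm40847: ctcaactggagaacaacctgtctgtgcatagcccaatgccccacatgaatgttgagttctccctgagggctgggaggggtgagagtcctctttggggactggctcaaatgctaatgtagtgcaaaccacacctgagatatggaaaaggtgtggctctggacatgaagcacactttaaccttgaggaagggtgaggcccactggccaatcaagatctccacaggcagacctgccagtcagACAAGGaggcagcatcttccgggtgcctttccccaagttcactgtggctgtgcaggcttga
Gm46543: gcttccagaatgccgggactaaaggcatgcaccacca
Trpv5, Drc7, Gm33024 and Gm46543 had no match inside the overlapped stretch. The windows of Gm40862 and Gm40847 each shared runs of 50 bases with 2 other windows, so reads of near-identical copies may have been placed at either. In all, 5 of the 168 windows under a SOX17FNV-stronger region shared such a run.

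The next 3 windows are shown for their matches: Prkcb (chr7:122288875-122289120, plus strand) for the octamer, and Chit1 (chr1:134110992-134111291, plus) and Grip1 (chr10:119819139-119819438, plus) for 3 SOX cores each.
Prkcb: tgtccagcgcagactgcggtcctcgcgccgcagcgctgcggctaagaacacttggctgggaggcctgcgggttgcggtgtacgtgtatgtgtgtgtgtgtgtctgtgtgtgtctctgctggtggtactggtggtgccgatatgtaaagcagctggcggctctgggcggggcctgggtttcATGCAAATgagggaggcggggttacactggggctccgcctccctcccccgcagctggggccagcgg
Chit1: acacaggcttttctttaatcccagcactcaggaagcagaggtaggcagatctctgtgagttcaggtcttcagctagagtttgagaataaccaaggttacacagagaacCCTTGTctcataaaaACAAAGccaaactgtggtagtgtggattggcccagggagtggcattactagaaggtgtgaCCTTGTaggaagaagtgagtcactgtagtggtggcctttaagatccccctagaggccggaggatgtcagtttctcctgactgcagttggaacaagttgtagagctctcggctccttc
Grip1: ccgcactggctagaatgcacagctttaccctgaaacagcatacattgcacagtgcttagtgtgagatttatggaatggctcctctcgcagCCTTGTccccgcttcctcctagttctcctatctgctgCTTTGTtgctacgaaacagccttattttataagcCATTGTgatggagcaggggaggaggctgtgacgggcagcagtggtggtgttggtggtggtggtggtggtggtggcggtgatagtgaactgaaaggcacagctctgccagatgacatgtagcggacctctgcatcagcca
Prkcb encodes protein kinase C beta, Chit1 a secreted chitinase and Grip1 a scaffold of glutamate receptors. At the Prkcb window all 4 libraries had a summit inside the window, and the region ranked at percentiles 57.4 and 44.6 in the SOX17FNV libraries, against 21.1 and 6.87 in the SOX2 libraries. Chit1 ranked at 52.2 and 63.3 with SOX17FNV, against 16.0 and 15.7 with SOX2, and its window held summits of all 4 libraries too. Grip1 ranked at 51.8 and 58.6 with SOX17FNV, against 23.4 and 25.2 with SOX2, and 3 libraries had a summit in its window.

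SOX17FNV-stronger regions overlapped 168 promoter windows of 156 genes. The SOX core ACAANG, searched on both strands, stood in 71 of them, or 42.3% (exact binomial 95% interval 34.7% to 50.1%). Among windows under SOX2-stronger regions it stood in 38.4%, under all shared regions in 32.4%, and among all 32851 windows in 41.2%. The longer core AACAANG, which lies within the first, was in 14.9% of windows under SOX17FNV-stronger regions, 12.6% under SOX2-stronger regions and 9.59% under all shared regions. Among all windows it was in 14.1%. The octamer was found in 2 windows (1.19%, interval 0.145% to 4.23%), against 1.45% under all shared regions. One was that of Prkcb, and the other lay under a region 26357 bp from Flt1 (chr5:147752795-147753241). The canonical and the compressed SOX-OCT sites were found in 0 of 168 windows, an upper bound of 2.17% by the exact interval, and in at most 1 of the 13757 windows under all shared regions.

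Windows under SOX17FNV-stronger regions were less rich in G and C than those of shared regions at large, with a median GC content of 56.7% and a median of 12 CpG, against 58.3% and 13 CpG under SOX2-stronger regions and 61.3% and 21 CpG under all shared regions. The GC box GGGCGG, the core of SP factor sites, was in 48.8% of the windows, against 50.3% under SOX2-stronger and 64.4% under all shared regions. The KLF core CACCC was in 61.3% of windows under SOX17FNV-stronger, 71.4% under SOX2-stronger and 64.6% under all shared regions. The TEAD core GGAATG was in 19.05% of windows under SOX17FNV-stronger regions (13.4% to 25.8%), 15.6% under SOX2-stronger and 12.04% under all shared regions. Among all 32851 windows it was in 14.7%, which the interval holds. Further motifs were searched that are not described here. A match is a run of letters and not a bound site, and these shares cover promoters only.

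In the plot of rank differences, the cloud of shared regions is centred near 0 in both replicates, and the regions taken lie in its upper right corner. In replicate 1 alone 7292 regions (13.8%) were at least 20 percentiles higher with SOX17FNV, and in replicate 2 alone 8283 (15.6%). Of the first, 64.7% were above 0 in replicate 2, and of the second 62.6% were above 0 in replicate 1. Across regions, which share their libraries and are not replicates, the 2 differences had a Pearson r of 0.293, and 1477 regions passed 20 percentiles in opposite directions. Because the rule uses these values, they describe the selection and no test was run. With 2 libraries against 2, an exact permutation test cannot give a p below 0.333.

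**Figure D1:**
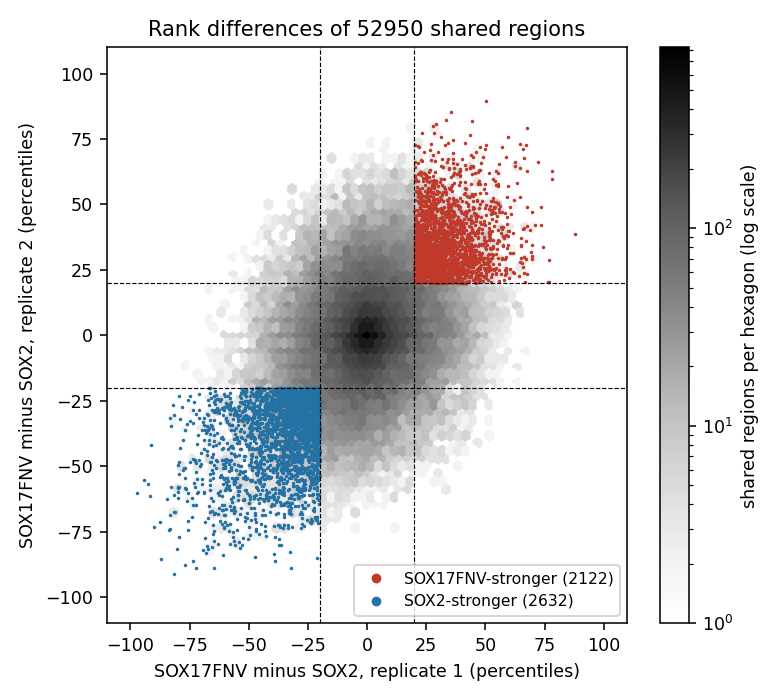
Each axis is the SOX17FNV percentile minus the SOX2 percentile of one replicate over 52950 shared regions, shaded by regions per hexagon on a log scale. Red points are the 2122 SOX17FNV-stronger and blue points the 2632 SOX2-stronger regions, and dashed lines mark 20 percentiles.

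The median SOX17FNV-stronger region ranked at percentiles 61.4 and 60.4 with SOX17FNV, against 25.4 and 22.6 with SOX2. They were thus mid-strength sites with SOX17FNV and weak ones with SOX2, a gap that the rule itself asks for. SOX2-stronger regions showed its mirror, with medians of 63.9 and 62.65 with SOX2, against 23.4 and 19.5 with SOX17FNV. Most differences were small: 1430 regions had a smaller difference (the lower of the 2 replicates) of 20 to 30 percentiles, 502 of 30 to 40, 152 of 40 to 50, and 38 of 50 or more. Among SOX2-stronger regions 193 reached 50. Both SOX17FNV percentiles lay above both SOX2 percentiles in 2010 of the regions (94.7%), which the rule makes likely, against 19.6% of all shared regions, and the groups overlapped in the other 112.

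The pileup at the summit, the number of fragments stacked there, had medians of 37 and 27 with SOX17FNV, against 26 and 21 with SOX2. Over all shared regions the medians were 33 and 24 with SOX17FNV and 35 and 28 with SOX2, which differ with depth. Divided by these library medians, the SOX17FNV-stronger regions stood at 1.12 and 1.125 with SOX17FNV, against 0.743 and 0.750 with SOX2. The ratio of scaled pileups had a median of 1.48 in replicate 1 and 1.45 in replicate 2. It exceeded 1 in both replicates for 2120 of 2122 regions, against 17781 of the 52950 shared regions. The -log10 p is computed from this pileup, so the rule makes such a count likely and it is no separate support.

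The local background enters the -log10 p as well. Its median at SOX17FNV-stronger regions was 6.14 and 4.69 fragments with SOX17FNV, against 5.76 and 6.37 with SOX2. At all shared regions it was 6.25 and 4.82 with SOX17FNV and 6.84 and 6.93 with SOX2. The genome-wide background was 3.91 and 3.27 with SOX17FNV, against 4.17 and 5.02 with SOX2. When the regions were ranked by pileup in place of -log10 p, 1277 of the 2122 kept a difference of 20 in both replicates, 841 stood between 0 and 20, and 4 fell below 0. The part of background and depth in the ranks was not tested further.

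Ordered by the smaller difference, the first region was at H2-Ob, which encodes the beta chain of the MHC class II molecule DO, in a region 3405 bp from the gene (chr17:34234928-34235500). H2-Ob ranked at percentiles 90.8 and 83.1 with SOX17FNV, against 23.4 and 3.84 with SOX2. Its pileups were 45 and 30 with SOX17FNV, against 20 and 14 with SOX2, so both SOX17FNV libraries stood well above both SOX2 libraries. As a mean, H2-Ob ranked at 86.9 ± 5.41 with SOX17FNV and 13.6 ± 13.8 with SOX2 (SD, n = 2 each).

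Rasgrf1, an exchange factor gene for RAS, had a region 8695 bp away (chr9:89900230-89900813) at percentiles 90.3 and 91.8 with SOX17FNV, against 23.4 and 19.3 with SOX2. Tead2, a TEAD transcription factor gene of the Hippo pathway, held a region inside the gene (chr7:45229263-45230021) with pileups of 65 and 44 with SOX17FNV, against 26 and 21 with SOX2. That region had the highest scaled pileup of the 10 largest differences, 1.90 ± 0.10 with SOX17FNV and 0.746 ± 0.005 with SOX2 (SD, n = 2 each). The regions at places 3, 4 and 6 of the order were nearest to Syndig1, Syt6 and Slc18b1. Syndig1, a synapse differentiation gene, had a region 39133 bp away at 81.7 and 81.1 with SOX17FNV, against 15.3 and 13.3 with SOX2. Syt6, a synaptotagmin gene, had one 43282 bp away at 84.0 and 79.5 with SOX17FNV, against 11.6 and 13.3 with SOX2. Slc18b1, a vesicular transporter gene, held one at 65.2 and 86.2 with SOX17FNV, against 0.700 and 13.3 with SOX2.

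The remaining 4 were at Dynlt1b, a dynein light chain gene, inside Prkcb and at 2 places with no protein-coding gene within 50 kb. The Dynlt1b region lay 22867 bp away and ranked at 80.1 and 64.7 with SOX17FNV, against 15.3 and 0.677 with SOX2. In SOX2 replicate 2 its pileup was 13, the lowest of any summit in that library. At Slc18b1 the pileup of 12 in SOX2 replicate 1 was likewise the lowest there. A few fragments move such ranks far. On the genome-wide background, pileups of 14, 16 and 20 in SOX2 replicate 2 stood at percentiles 3.84, 13.3 and 36.6. Within Prkcb (chr7:122477852-122478626) the pileups were 49 and 36 with SOX17FNV, against 20 and 19 with SOX2. The regions without a gene were chr6:102731906-102732562, at 81.7 and 70.3 with SOX17FNV against 3.40 and 7.67 with SOX2, and chr8:12112126-12113400, at 81.5 and 87.3 with SOX17FNV against 19.1 and 22.7 with SOX2.

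**Figure D2:**
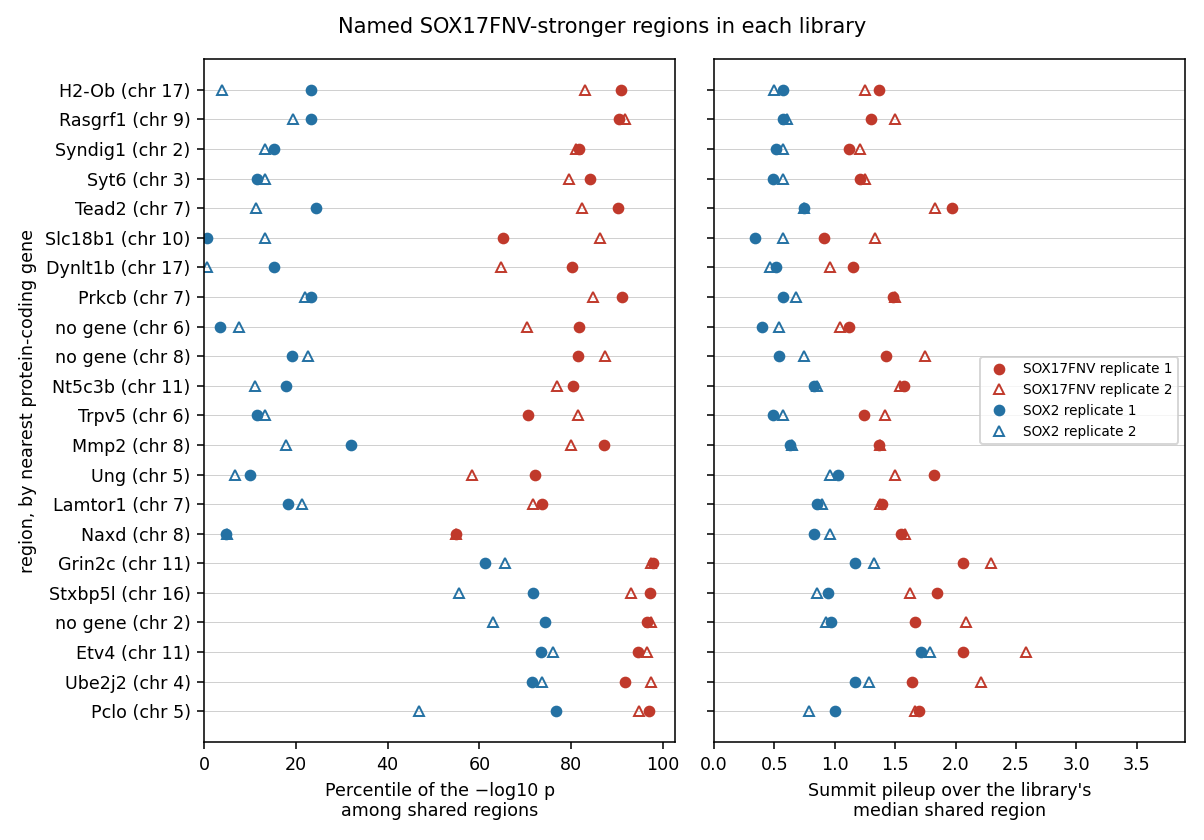
Each row is a named SOX17FNV-stronger region, with its percentile among shared regions on the left and its summit pileup over the library's median shared region on the right, in each of the 4 libraries. The red SOX17FNV points lie right of the blue SOX2 points in every row, from H2-Ob at percentiles 90.8 and 83.1 against 23.4 and 3.84 to Pclo at 96.9 and 94.8 against 76.7 and 46.9.

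Near gene ends, the largest difference was at Nt5c3b, a cytosolic nucleotidase gene (chr11:100425562-100426507), with percentiles of 80.3 and 77.0 with SOX17FNV, against 17.9 and 11.0 with SOX2. Trpv5, which encodes an epithelial calcium channel, came next, and its window without a SOX core is printed above. The Trpv5 region (chr6:41680363-41681941) had pileups of 41 and 34 with SOX17FNV, against 17 and 16 with SOX2. Mmp2, a gelatinase gene, ranked at 87.2 and 79.9 with SOX17FNV, against 31.9 and 17.7 with SOX2. Ung, the uracil-DNA glycosylase gene of base excision repair, had pileups of 60 and 36 with SOX17FNV, against 36 and 27 with SOX2. Lamtor1, which tethers the mTORC1 activating complex to lysosomes, ranked at 73.7 and 71.7 with SOX17FNV, against 18.3 and 21.4 with SOX2. Naxd, a repair enzyme gene for hydrated NADH, ranked at 54.9 ± 0.10 with SOX17FNV and 4.84 ± 0.12 with SOX2 (SD, n = 2 each).

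A few SOX17FNV-stronger regions were among the strongest sites of the SOX17FNV libraries. Grin2c, an NMDA receptor subunit gene, held one (chr11:115257760-115258593) at percentiles 97.9 and 97.4 with SOX17FNV, against 61.2 and 65.5 with SOX2, with pileups of 68 and 55 with SOX17FNV and 41 and 37 with SOX2. Stxbp5l, a regulator of vesicle fusion, held one at 97.1 and 93.0 with SOX17FNV, against 71.6 and 55.6 with SOX2. A site with no gene within 50 kb (chr2:106561251-106562325) ranked at 96.5 and 97.4 with SOX17FNV, against 74.2 and 63.0 with SOX2. Etv4, an ETS factor gene responsive to FGF signalling, held one at 94.6 and 96.6 with SOX17FNV, against 73.4 and 76.0 with SOX2. Ube2j2, a ubiquitin-conjugating enzyme gene of the endoplasmic reticulum, and Pclo, a presynaptic scaffold gene, completed the 6. At Ube2j2 the percentiles were 91.7 and 97.3 with SOX17FNV, against 71.4 and 73.7 with SOX2, and at Pclo, 19792 bp from the gene, 96.9 and 94.8 with SOX17FNV, against 76.7 and 46.9 with SOX2. Near the top, rankings differ: ranked by fold, the smaller difference was 38.8 at Grin2c and 31.9 at Etv4, but under 20 at Ube2j2 (19.27), Stxbp5l (8.38), the chromosome 2 site (7.86) and Pclo (6.60). Without SOX2 replicate 2, Grin2c kept 31.3 and the other 5 stood at 15.6 to 19.2. Without SOX17FNV replicate 2 the chromosome 2 site, Etv4, Ube2j2 and Pclo stood at 15.6 to 19.5, and ranked by pileup Etv4 had 6.39.

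At the threshold the values ran together. Just inside it were regions at Mcph1, with differences of 41.7 and 20.01 percentiles, at 2610528J11Rik, with 26.7 and 20.01, and one with no gene (chr8:26273355-26274024), with 20.005 and 25.1. Among those just outside were Unc5b, with 20.1 and 19.998, and Arhgef7, with 19.994 and 35.3.

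The share near gene ends depended on which peaks were kept. Of the 2122, 269 stood no more than 1 kb from a start or end of a protein-coding gene span, 12.7% (exact 95% interval 11.3% to 14.2%), against 12.8% of SOX2-stronger and 26.0% of all shared regions. Among peaks with a -log10 q of at least 5 it was 22.3%, against 38.7% of all shared regions, and with at least 10 it was 43.7%, against 53.7%. Inside genes lay 46.1% of them (44.0% to 48.2%), against 42.6% of SOX2-stronger and 38.0% of all shared regions. Farther than 50 kb from any gene lay 11.6% (10.3% to 13.1%), against 18.2% of SOX2-stronger regions (16.7% to 19.7%) and 10.5% of all shared regions. The intervals cover counting error only, and regions are not replicates.

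A region can gain 20 percentiles in rank only if it is not already at the top, so the shares were also taken within classes of mean percentile over the 4 libraries. In the class from 25 to 50, gene ends took 11.7% of SOX17FNV-stronger regions (10.003% to 13.6%), against 13.3% of SOX2-stronger and 15.7% of all shared regions. In the class from 50 to 75 they took 14.1% (11.5% to 17.1%), against 13.6% of SOX2-stronger and 25.8% of all shared regions. Below 25 the share was 13.4% (8.94% to 19.02%), against 8.33% of SOX2-stronger and 12.8% of all shared regions. The gap to all shared regions was wider in the stronger of these classes. By start sites the share was again below that of all shared regions, but the 2 selected sets differed more than by gene ends. Within 1 kb of a RefSeq start lay 8.49% (7.32% to 9.78%), against 11.1% of SOX2-stronger (9.93% to 12.4%) and 22.5% of all shared regions. The median distance to the nearest RefSeq start was 17343 bp, against 22626 bp for SOX2-stronger and 13512 bp for all shared regions. Promoter windows were overlapped by 147 of 2050 regions on the chromosomes with windows (7.17%, 6.09% to 8.37%), against 9.55% of SOX2-stronger and 20.8% of all shared regions.

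**Figure D3:**
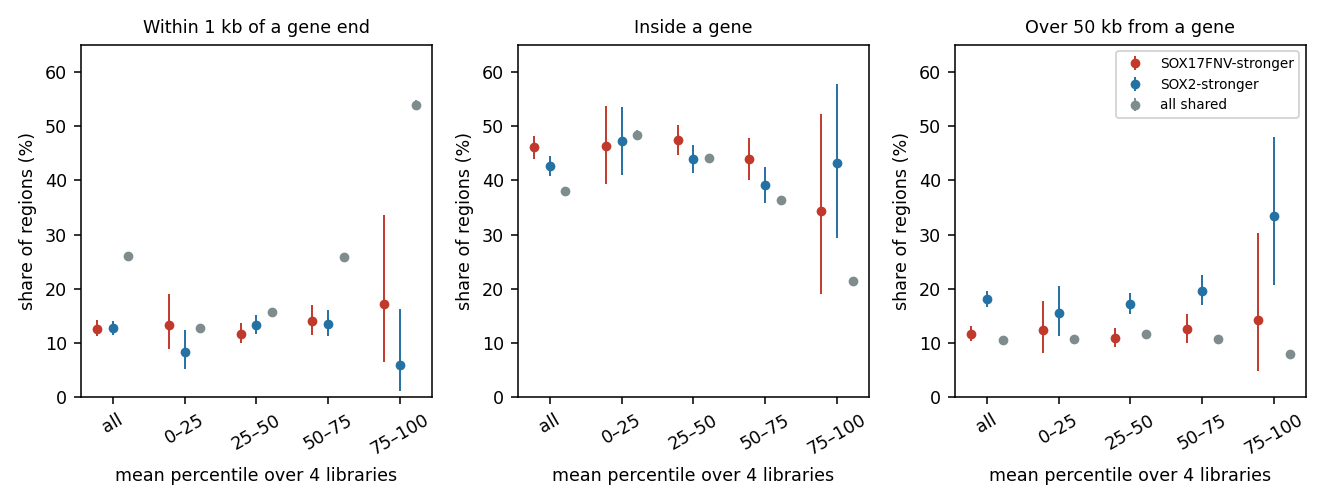
Share of regions within 1 kb of a gene end, inside a gene and over 50 kb from a gene, for all strengths and by mean percentile, with exact 95% binomial intervals. SOX17FNV-stronger regions (red) lie at 12.7% near gene ends against 26.0% for all shared regions (grey), and at 11.6% far from genes against 18.2% for SOX2-stronger regions (blue).

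The merged width of SOX17FNV-stronger regions had a median of 709 bp (quartiles 561 and 916), against 862 bp for SOX2-stronger and 833 bp for all shared regions. The strongest summits of the 2 SOX17FNV libraries lay within 100 bp of each other in 82.6% of them (80.9% to 84.2%), against 57.3% of SOX2-stronger and 69.7% of all shared regions. The summits of the 2 SOX2 libraries did so in 66.2%, against 70.6% of SOX2-stronger and 66.6% of all shared regions. In both selected sets the libraries with the higher pileup placed their summits closer together, and the part of pileup in this was not tested.

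Every ranked chromosome held some, from 2.28% of shared regions on chromosome 13 (56 of 2459) to 4.70% on chromosome 7 (165 of 3507). Within 50 kb of a SOX17FNV-stronger region, a region called only in the 2 SOX17FNV libraries was found in 33.3% of cases (31.3% to 35.4%), against 22.4% around SOX2-stronger and 29.2% around all shared regions. A region called only in the 2 SOX2 libraries was found in 32.3%, against 37.0% around SOX2-stronger and 35.3% around all shared regions. Shared regions in neither selected set and within 50 kb had median differences near 0, which were 1.83 and 1.39 percentiles around SOX17FNV-stronger regions and 0.92 and 0.54 around all shared regions.

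By the nearest protein-coding gene within 50 kb, 1875 of the 2122 regions were assigned to 1675 genes. Of these genes 163 had at least 2 such regions and 27 at least 3, and 289 also had a SOX2-stronger region. Over all shared regions, 14973 genes had an assigned one. No background is given for the counts of genes with several regions or with both kinds. Longer genes have more regions to choose from, so counts are given with the shared regions of the gene.

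Cdh13, the gene of T-cadherin, had the most, 6 of its 25 shared regions and no SOX2-stronger region. They lay inside the gene between chr8:118285617 and chr8:119305279, and their percentiles ran from 50.6 to 91.9 in SOX17FNV replicate 1 and 45.5 to 84.2 in replicate 2, against 15.3 to 62.2 in SOX2 replicate 1 and 0.677 to 52.3 in replicate 2. Its shared regions as a whole had median differences of 16.6 and 20.2 percentiles. Etl4 had 5 of 38, beside 3 SOX2-stronger regions, and median differences of 4.34 and -1.84. The others had 4 each: Hormad2, a meiotic chromosome axis gene, of 8, Spidr, a DNA repair scaffold gene, of 10, Igsf21, a synaptic adhesion gene, of 14, Rai14, an actin-binding gene, of 14, and Dst, a cytoskeletal linker gene, of 37. The Spidr region at chr16:15909410-15910587 was the strongest of these in rank difference, at 86.6 and 77.4 with SOX17FNV, against 23.4 and 19.3 with SOX2. At Rai14 one of the 4 (chr15:10685710-10686997) ranked at 77.3 and 27.5 with SOX17FNV, against 53.1 and 4.71 with SOX2, so its groups overlapped.

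Gene lists of pathways and cell types gave a like picture to the background of 4.01%. Over 20 lists, 229 genes on the ranked chromosomes had 1017 shared regions, of which 42 (4.13%) at 37 genes were SOX17FNV-stronger and 50 (4.92%) SOX2-stronger. The highest shares were in the BMP list, 5 of 57 (8.77%, 2.91% to 19.3%), the WNT and beta-catenin list, 8 of 92 (8.70%, 3.83% to 16.4%), and the LIF and STAT3 list, 5 of 60 (8.33%, 2.76% to 18.4%). These are the highest of 20 shares, and each of the 3 intervals holds 4.01%. Single regions at list genes depended on the libraries and on the ranking value. Of the 42, 28 to 30 kept a difference of 20 when 1 library was left out, and 17 kept it in each of the 4 such settings. Ranked by fold 21 of the 42 kept it, ranked by summit pileup 20, and with crossed pairs of replicates 22. SOX2-stronger regions made up 5.26% of the BMP, 8.70% of the WNT and 5.00% of the LIF list.

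**Figure D4:**
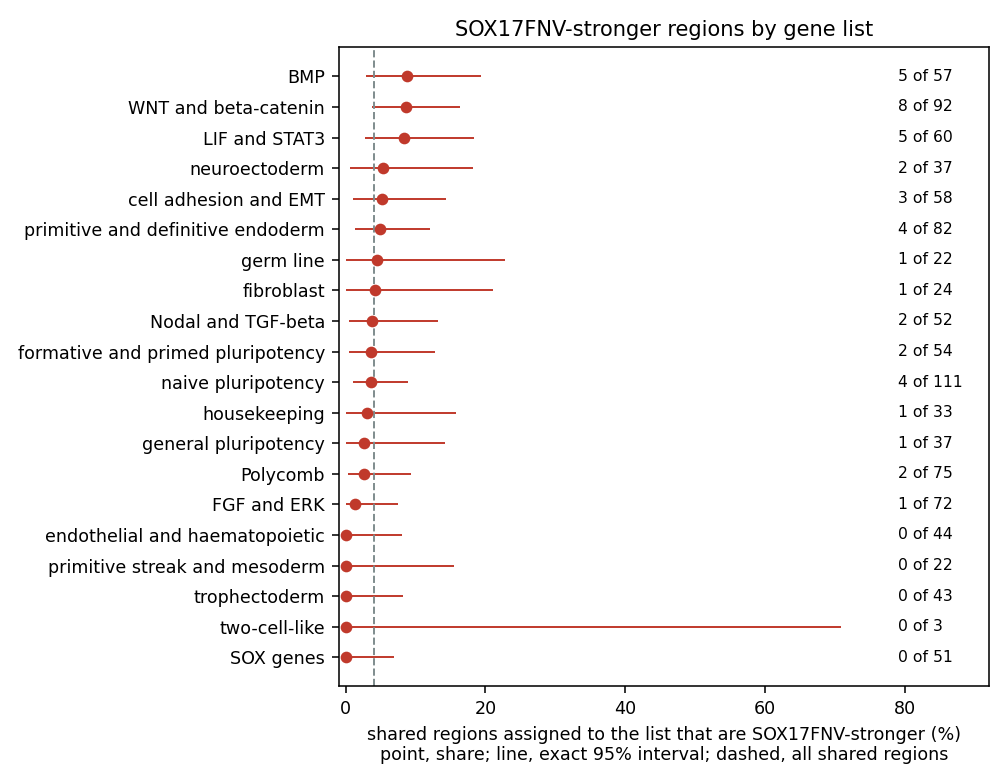
Share of the shared regions assigned to each of 20 gene lists that were SOX17FNV-stronger, with exact 95% binomial intervals and counts at the right. The dashed line is the 4.01% of all shared regions, and the intervals of the lists with the highest shares, such as 5 of 57 for BMP, hold it.

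In the LIF pathway, which keeps mouse embryonic stem cells undifferentiated through STAT3, the 5 regions were at the cytokine Lif, the receptor-associated kinase Jak2, the phosphatase gene Ptpn11, the feedback inhibitor gene Socs3 and Bcl3, an atypical IκB gene. Jak2 held a region (chr19:29284971-29285942) at 91.5 and 71.1 with SOX17FNV, against 40.6 and 36.6 with SOX2. The region inside Lif (chr11:4266868-4267509) ranked at 76.1 and 54.2 with SOX17FNV, against 43.9 and 26.8 with SOX2. Ptpn11 ranked at 70.5 and 41.5 with SOX17FNV, against 34.7 and 2.24 with SOX2. Socs3, 31259 bp away, ranked at 78.2 and 76.7 with SOX17FNV, against 54.2 and 40.01 with SOX2, and Bcl3 at 25.05 and 59.2 with SOX17FNV, against 3.01 and 27.1 with SOX2. The groups overlapped at Bcl3, where SOX17FNV replicate 1 stood below SOX2 replicate 2, and not at the others. Across replicate numbers, however, the gap was small at Lif and Ptpn11. With crossed pairs the smaller difference was 10.3 at Lif and 6.74 at Ptpn11, without SOX17FNV replicate 1 it was 10.2 and 6.80, and without SOX2 replicate 2 it was 8.97 and 5.45. Ranked by pileup, the smaller difference was under 20 at Lif (16.5), Socs3 (10.4) and Bcl3 (14.35), and above it at Jak2 (31.45) and Ptpn11 (28.7). Lifr, the LIF receptor gene, had SOX2-stronger regions.

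In the WNT pathway the regions were at both glycogen synthase kinase genes, Gsk3a and Gsk3b, at the effector gene Ctnnb1, at the TCF factor genes Tcf7l1 (2 regions) and Tcf7l2, and at the target and inhibitor gene Axin2 (2 regions). Ranked by -log10 p, Gsk3a had the largest smaller difference of the 42 regions at list genes, in a narrow region of 228 bp 1435 bp from the gene, with 53.8 and 62.5 with SOX17FNV, against 7.05 and 0.042 with SOX2. Its pileups were 58 and 42 with SOX17FNV and 42 and 28 with SOX2. Ranked by fold, the difference was 14.8 at Gsk3a and 10.2 at the collagen gene Col4a1 of the endoderm list, both under the threshold. By pileup it was 22.7 at Gsk3a, below the 39.35 of Col4a1. Inside Ctnnb1, which encodes beta-catenin, the percentiles were 32.0 and 44.3 with SOX17FNV, against 0.053 and 4.31 with SOX2. Ranked by fold, its smaller difference was 16.2. Tcf7l1 and Gsk3b also had SOX2-stronger regions.

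In the BMP pathway 3 of the 5 regions were at Smad6, an inhibitory SMAD gene, and the others at the ligand gene Bmp7 and the target gene Id1. The Smad6 region with the largest smaller difference (chr9:64018457-64018846) had pileups of 57 and 39 with SOX17FNV, against 39 and 33 with SOX2. Its percentiles were 60.9 and 48.3 with SOX17FNV, against 6.04 and 15.5 with SOX2. Its smaller difference fell to 12.7 ranked by fold and 17.5 by pileup. The Smad6 region at chr9:63958238-63959585 ranked higher with SOX17FNV, at 69.2 and 61.7, and had 30.5 by fold and 20.5 by pileup. The one starting at chr9:63918141 had 25.7 and 20.4. The Bmp7 region, 27984 bp away, ranked at 41.6 and 55.5 with SOX17FNV, against 12.3 and 23.7 with SOX2. In the Nodal and TGF-beta list, 2 of 52 regions (3.85%, 0.469% to 13.2%, beside 4.01% of all shared regions) were at Lefty1, a Nodal antagonist gene, and Foxh1, which encodes a SMAD partner factor. Lefty1 (chr1:180933379-180934925), 97 bp from the gene, had pileups of 49 and 40 with SOX17FNV, against 25 and 27 with SOX2. In the FGF and ERK list 1 of 72 was taken (1.39%, 0.0352% to 7.50%), at the feedback inhibitor gene Spred2, beside 5 SOX2-stronger regions.

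Endoderm genes, which wild-type SOX17 is known for, had 4 of 82 regions (4.88%, 1.34% to 12.02%), beside 3 SOX2-stronger ones. The basement membrane collagen genes Col4a1 and Col4a2 each had a region. Col4a2 (chr8:11381976-11382754) ranked at 61.6 and 75.5 with SOX17FNV, against 20.7 and 34.2 with SOX2, and Col4a1 at 69.7 and 74.6 with SOX17FNV, against 38.0 and 27.7 with SOX2. Gata6, a primitive endoderm factor gene, ranked at 74.4 and 31.4 with SOX17FNV, against 23.4 and 3.84 with SOX2, so the SOX17FNV libraries were far apart, at 52.9 ± 30.4 against 13.6 ± 13.8 (SD, n = 2 each). Its smaller difference was 8.16 without SOX17FNV replicate 1 and 6.91 without SOX2 replicate 2. Dab2, an endocytic adaptor gene of endoderm, ranked at 78.8 and 80.4 with SOX17FNV, against 57.4 and 59.4 with SOX2. Ranked by fold, the smaller difference was under 20 at Col4a1 (10.2) and Dab2 (14.2), and above it at Col4a2 (24.1) and Gata6 (34.9).

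General pluripotency factors had 1 of 37 regions (2.70%, 0.0684% to 14.2%), 15715 bp from Dppa2. Naive factors had 4 of 111 (3.604%, 0.990% to 8.97%), at Tfcp2l1 (2), Tbx3 and Tet2. Formative and primed factors had 2 of 54 (3.70%, 0.452% to 12.7%), at Fgf5 and Etv4. All 3 intervals hold 4.01%. Fgf5, an early postimplantation marker, ranked at 85.3 and 87.4 with SOX17FNV, against 39.2 and 67.4 with SOX2. At Tet2, which encodes a methylcytosine dioxygenase, and at one Tfcp2l1 region (chr1:118645672-118646149) the pileups did not differ in the same way as the ranks. Tet2 had pileups of 41 and 24 with SOX17FNV and 43 and 25 with SOX2, on backgrounds of 9.26 and 7.06 with SOX17FNV and 15.3 and 11.5 with SOX2. Tfcp2l1 had 58 and 41 with SOX17FNV and 60 and 35 with SOX2, on backgrounds of 20.3 and 14.03 with SOX17FNV and 28.4 and 19.03 with SOX2. Ranked by pileup, the smaller differences were -0.293 at Tet2 and -0.610 at that Tfcp2l1 region.

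**Figure D5:**
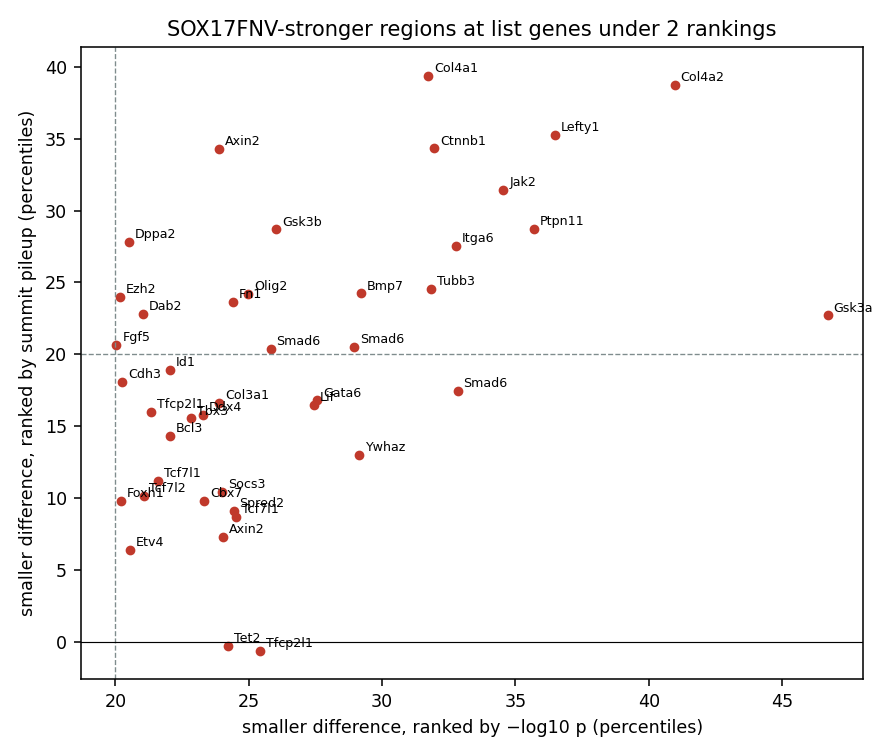
Smaller of the 2 percentile differences of each SOX17FNV-stronger region at a list gene, ranked by -log10 p on the horizontal and by summit pileup on the vertical axis, with dashed lines at 20. Col4a1, Col4a2, Lefty1, Ctnnb1 and Jak2 lie above 20 on both axes, whereas Tet2 and one Tfcp2l1 region lie just below 0 by pileup, at -0.293 and -0.610. Ranked by fold, which is not plotted, Col4a1 and Ctnnb1 stood under 20, at 10.2 and 16.2.

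Of the lists of other cell types and complexes, neuroectoderm genes had 2 of 37 (5.41%, 0.662% to 18.2%), at Olig2, 43873 bp away, and Tubb3. Cell adhesion genes had 3 of 58 (5.17%, 1.08% to 14.4%), at Cdh3, Itga6 and Fn1, and Polycomb genes 2 of 75 (2.67%, 0.325% to 9.30%), at Ezh2 and Cbx7. The germ line list had 1 of 22 (4.55%), at Ddx4, the fibroblast list 1 of 24 (4.17%), at Col3a1, and the housekeeping list 1 of 33 (3.03%), at Ywhaz. The SOX gene list had 0 of 51 regions (upper bound 6.98%), the trophectoderm list 0 of 43, the endothelial and haematopoietic list 0 of 44, the primitive streak and mesoderm list 0 of 22 and the 2-cell-like list 0 of 3. These counts cover the listed genes only. Flt1, which was not a list gene, had a SOX17FNV-stronger region 26357 bp away. It ranked at 46.8 and 32.3 with SOX17FNV, against 6.01 and 6.795 with SOX2. In each of the 4 libraries 12 of 12 general pluripotency genes had a called region at a gene end, against 66.8% to 70.2% of all genes. Other cell types' lists reached like shares: 10 or 11 of 11 primitive streak and mesoderm genes, 83.3% to 91.7% of neuroectoderm genes and 12 of 12 cell adhesion genes, so these calls at gene ends did not set the pluripotency list apart. Of 12 fibroblast genes 8 and 7 did so with SOX17FNV, and 8 and 7 with SOX2, and of 7 genes of the 2-cell-like list 0 did in any library.

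At the SOX loci themselves, the region over Sox17 (chr1:4491737-4493783) ranked at 95.01 and 99.6 with SOX17FNV, against 78.2 and 79.4 with SOX2, and missed the threshold in replicate 1 with a difference of 16.8. Its pileups were 84 and 88 with SOX17FNV, against 61 and 49 with SOX2. Whether reads of the provirus enter this value was not tested. A weaker region 18463 bp from Sox17 (chr1:4471460-4472465) was SOX2-stronger, at 25.4 and 7.99 with SOX17FNV, against 54.8 and 32.1 with SOX2. Around Sox2 none of the shared regions was SOX17FNV-stronger, and the region over the gene (chr3:34648572-34650207) ranked at 72.7 and 67.6 with SOX17FNV, against 51.7 and 79.2 with SOX2, where the groups overlapped. Whether reads of the SOX2 provirus enter the values over Sox2 was not tested either.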

How the data were processed

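ATAC-seq peaks of 2TS22C cells were analysed from 1 deposited list per library, 2 libraries for SOX17FNV and 2 for SOX2. Per the submitters' processing notes, the tools were Bowtie2, SAMtools and MACS2 and the build mm10. Their versions, settings and filters, with any transposase shift, were not given in the sources used here. The deposited lists give, as the authors' own values, the fold enrichment (a ratio of pileup to local background), a -log10 p-value and a -log10 q-value for each summit. They also hold a deposited score and the summit's offset from the peak start. Read totals are not in the lists, so depth was read from the peaks: a whole-number pileup was solved from the fold and the Poisson p and matched the deposited -log10 p within 0.001 at 100% of summits (in simulation, all of 14980). The lists held 120341 and 92851 intervals for SOX17FNV and 123214 and 96500 for SOX2.

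Intervals overlapping by at least 1 bp were merged, and ranks were taken over shared regions only. The selection recovered all of 500 simulated regions, which were shifted well past the threshold with little noise between libraries. That checked the code only and does not tell how the selection performs on these libraries. Regions were assigned to the nearest of 21883 protein-coding spans within 50 kb. Promoter windows, start sites and motifs used RefSeq GRCm38.p6 windows, which lack chromosome 18, so those shares count 2050 of the regions. Genome sequence outside windows was not used here. Python 3.11.15, pandas 2.3.3 and scipy 1.17.1 were used.

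The regions, the 20 gene lists (255 genes, of which 229 lay on ranked chromosomes, 25 outside them and Dux was not matched) and the alternatives were chosen with earlier results of these data known. Named were the 10 largest smaller differences, the 6 highest SOX17FNV percentiles, the first 6 near gene ends, the genes with most regions (7, with ties at 4), every region at a list gene, the 3 regions on each side of the threshold (1 of them is not reported here) and the regions with printed promoters. The region near Flt1 was named for its octamer. Chit1, Grip1 and the Sox17 and Sox2 loci were added after their values were seen. Alternatives covered the ranking value, threshold, peak cutoff, merging, region width, chromosomes, pairing and leaving out each library.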

Additional observations from a re-analysis of the deposited data

How the results depend on the processing

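With 10, 30 and 40 percentiles there were 5897, 692 and 190 SOX17FNV-stronger regions, against 6001, 1063 and 432 SOX2-stronger ones (2122 and 2632 with 20), with 15.4%, 10.8% and 6.32% of the first near gene ends. With -log10 q of at least 5 there were 1153 SOX17FNV-stronger and 1318 SOX2-stronger regions, with 22.3% of the first near gene ends (38.7% of all shared regions), and with at least 10, 630 SOX17FNV-stronger and 659 SOX2-stronger, with 43.7% (53.7%). The strongest 50000 peaks of each list gave 1256 SOX17FNV-stronger and 1399 SOX2-stronger, with 20.7% (37.6%), so both gene-end shares were higher with stricter lists. Ranking by fold gave 1866 SOX17FNV-stronger and 2227 SOX2-stronger, and by summit pileup 1702 SOX17FNV-stronger, with 9.11% near gene ends, and 2146 SOX2-stronger. Ranking among all regions of each library, in place of the shared ones, gave 1434 SOX17FNV-stronger, 1058 of them among the original 2122, with 11.7% near gene ends, and 2205 SOX2-stronger. Counting ends within 0.5 kb or 2 kb gave 9.94% and 17.2%. Leaving out 1 library gave 4025 to 4281 SOX17FNV-stronger regions, with 11.1% to 14.9% near gene ends, and 4403 to 4540 SOX2-stronger, where both differences of a region share the remaining library of 1 group. The labels do not pair the replicates, which only share a number: with no replicate block (group means in place of pairs) there were 5169 SOX17FNV-stronger and 5451 SOX2-stronger regions, and with crossed pairs 1940 SOX17FNV-stronger (1256 of them among the original 2122) and 2300 SOX2-stronger. Of 104 named regions, 65 kept 20 percentiles by fold, 70 by pileup, 97 after subtracting the local median, 72 with crossed pairs, and 77 to 85 without a library. The direction turned by pileup at Tfcp2l1 (-0.610) and Tet2 (-0.293). It turned with crossed pairs at Bcl3 (-2.09), 2610528J11Rik (-4.13) and Rai14 (-25.7). Over the 4 settings that leave out 1 library, the smaller difference ran from -2.11 to 32.04 at Bcl3, below 0 without either SOX17FNV replicate 2 (-0.517) or SOX2 replicate 1. It ran from -5.63 to 26.2 at 2610528J11Rik and from -25.9 to 23.5 at Rai14, both below 0 when SOX17FNV replicate 1 (-4.01 and -25.2) or SOX2 replicate 2 was left out. Their cause was not tested. With 2 libraries a group and unknown read totals, single regions have no replicate test.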

Other observations

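Some SOX17FNV-stronger regions stood in runs. Linking those at most 100 kb apart gave 18 runs of at least 4, of which 4 held 5. No background count of runs is given, and the runs described were picked for holding the most. Another SOX17FNV-stronger region lay within 50 kb of 21.02% of SOX17FNV-stronger regions (19.3% to 22.8%), against 18.1% of all shared regions. For SOX2-stronger regions the like shares were 20.02% (18.5% to 21.6%) and 17.96%. Both sets thus stood only a little above all shared regions. On chromosome 11 the run from 4266868 to 4451602 bp held 5 of 13 shared regions, 1 in Lif and 4 at Hormad2, and no SOX2-stronger region. The Hormad2 region at chr11:4422472-4423809 ranked at 96.1 and 89.0 with SOX17FNV, against 66.7 and 63.0 with SOX2, with pileups of 60 and 42 with SOX17FNV and 32 and 26 with SOX2. A second run, on chromosome 7 from 80097952 to 80257189 bp, held 5 of 19, at Idh2, which encodes a mitochondrial isocitrate dehydrogenase, Sema4b, a semaphorin gene, and Ttll13. On chromosome 4 a run held 5 of 20, with 3 at the glucose transporter gene Slc2a1, and on chromosome 17 a run held 5 of 11, at Tulp4, Dynlt1a and Dynlt1b, beside 2 SOX2-stronger regions. Over the 18 runs, the shared regions of a run that were not SOX17FNV-stronger had median differences from -12.35 to 19.83 percentiles in replicate 1 and from -9.92 to 29.72 in replicate 2, medians that leave out the regions chosen for being higher.

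At Prkcb 3 of 10 shared regions were SOX17FNV-stronger: the promoter with the octamer, the region with the eighth largest difference, and one at chr7:122575115-122575999, at 84.2 and 60.8 with SOX17FNV, against 40.6 and 36.6 with SOX2. Within 1 kb of a miRNA hairpin there were 4 SOX17FNV-stronger regions, of 202 shared regions near a hairpin (1.98%), beside 2050 of the 51106 shared regions on the chromosomes searched, at Mir3100, Mir7228, Mir7077 and Mir8109.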
